A study of Mus musculus with 3 samples.

Results

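The renin-angiotensin system and the peptidases that process its hormones were examined in kidneys of mice with anti-GBM glomerulonephritis. This is a disease in which antibody binds the basement membrane of the glomerulus, the filter of the kidney, and starts inflammation there. The set was defined by name as 9 mouse genes, namely the protease gene Ren1, the precursor gene Agt, the converting enzyme gene Ace, the receptor genes Agtr1a, Agtr1b and Agtr2, and the peptidase genes Enpep, Mme and Dpp4. Rows of the array whose gene symbol, brought up to date, was one of these names were taken as members. Of the 9 genes, 6 had a row, among 10698 named genes with a row, and 4 of these 6 had a usable ratio on all arrays. Ren1, Agtr1a and Agtr1b were not analysed here.

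The nephritic group was 3 BALB/c mice, sampled 11 days after they received anti-GBM antibody, with whole-kidney total RNA labelled with Cy5. The control was 1 pool of kidney RNA from 5 normal BALB/c mice, labelled with Cy3 and present on every array. The spread between control mice is therefore not measured, the dyes were not swapped, and a dye effect cannot be told apart from the disease. Each label names a different animal, and the animals are called mouse 1, mouse 2 and mouse 3 after the replicate number in the label.

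Renin, released by juxtaglomerular cells of the afferent arteriole, cuts angiotensinogen to angiotensin I, which angiotensin-converting enzyme turns into angiotensin II. Angiotensin II constricts vessels and promotes sodium retention through the AT1 receptor, and the AT2 receptor is held to oppose several of these actions. Aminopeptidase A (Enpep) shortens angiotensin II to angiotensin III, neprilysin (Mme) cleaves angiotensins and natriuretic peptides, and dipeptidyl peptidase IV (Dpp4) removes dipeptides from the ends of chemokines, neuropeptides and incretins. All of these peptidases are anchored in membranes and are abundant on the brush border of the proximal tubule; Enpep and Mme are also found on podocytes, Ace on endothelium and Dpp4 on T cells, where it is known as CD26.

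The sequences around the transcription starts of the 4 members with ratios on all arrays are shown because 3 of them fell together and because the rows of Ace gave different ratios. Each window is taken from RefSeq on build GRCm38.p6, matched by gene symbol, runs from 250 bases before to 50 after an annotated start, and is written 5′ to 3′ on the gene's strand. Capitals mark the TATA box, spelled TATAAA, and the GC box, for which the letters searched were GGGCGG, each on both strands, so that the reverse complements are marked too.
Enpep (chr3:129332700-129332999, minus strand): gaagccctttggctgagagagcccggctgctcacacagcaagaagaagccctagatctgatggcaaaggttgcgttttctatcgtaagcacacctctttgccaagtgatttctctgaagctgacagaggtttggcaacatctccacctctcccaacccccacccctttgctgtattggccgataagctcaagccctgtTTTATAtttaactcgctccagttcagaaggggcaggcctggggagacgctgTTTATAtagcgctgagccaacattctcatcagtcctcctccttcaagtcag
Dpp4 (chr2:62412182-62412481, minus strand): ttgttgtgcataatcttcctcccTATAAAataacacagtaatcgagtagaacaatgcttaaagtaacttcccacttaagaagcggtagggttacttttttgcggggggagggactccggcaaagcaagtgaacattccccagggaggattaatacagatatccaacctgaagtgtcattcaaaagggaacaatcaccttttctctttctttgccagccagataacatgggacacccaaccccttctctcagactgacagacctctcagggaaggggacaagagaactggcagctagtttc
Mme, the first of 3 listed starts (chr3:63294961-63295260, plus strand): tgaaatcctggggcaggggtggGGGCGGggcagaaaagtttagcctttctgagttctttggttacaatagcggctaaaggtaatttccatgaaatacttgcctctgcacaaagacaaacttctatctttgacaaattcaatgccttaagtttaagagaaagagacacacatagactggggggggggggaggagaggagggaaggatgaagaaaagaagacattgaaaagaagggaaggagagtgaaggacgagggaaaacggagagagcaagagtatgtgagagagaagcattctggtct
Mme, the last of 3 listed starts (chr3:63295845-63296144, plus strand): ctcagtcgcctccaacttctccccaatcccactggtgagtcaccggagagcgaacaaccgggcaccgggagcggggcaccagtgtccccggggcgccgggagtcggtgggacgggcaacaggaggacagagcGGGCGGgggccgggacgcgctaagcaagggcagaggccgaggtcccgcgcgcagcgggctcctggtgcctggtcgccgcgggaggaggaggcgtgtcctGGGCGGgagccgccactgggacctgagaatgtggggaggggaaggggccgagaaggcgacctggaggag
Ace, upstream start (chr11:105967698-105967997, plus strand): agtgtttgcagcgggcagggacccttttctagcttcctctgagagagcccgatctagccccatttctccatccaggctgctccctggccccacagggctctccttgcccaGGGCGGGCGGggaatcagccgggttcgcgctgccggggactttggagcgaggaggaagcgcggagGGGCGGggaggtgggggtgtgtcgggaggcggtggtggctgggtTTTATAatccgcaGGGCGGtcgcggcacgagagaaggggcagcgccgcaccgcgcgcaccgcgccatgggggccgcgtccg
Ace, downstream start (chr11:105974939-105975238, plus strand): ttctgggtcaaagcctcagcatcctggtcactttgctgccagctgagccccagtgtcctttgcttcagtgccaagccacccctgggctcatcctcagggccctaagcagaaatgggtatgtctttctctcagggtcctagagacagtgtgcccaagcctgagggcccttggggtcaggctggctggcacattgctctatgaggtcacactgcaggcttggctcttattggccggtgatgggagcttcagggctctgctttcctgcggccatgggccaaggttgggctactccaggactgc

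The upstream Ace window held 4 matches to the GC box and, on the opposite strand to the gene, a TATA match that began 31 bases before the start. The downstream Ace start lay 7241 bases further along the gene, and its window held neither motif. As background, Ace is known to be transcribed from a start inside the gene in male germ cells, which gives the shorter testis form. Enpep had a TATA match beginning 52 bases before its start and another beginning 1 base before it, both on the opposite strand. The match of Dpp4 lay 227 bases before its start, on the gene's own strand. The printed Mme windows held GC boxes and no TATA match. The middle Mme window, which overlaps the last, is counted as well. A TATA match on either strand was then found in 3 of 7 windows of these genes, against 13.6% of all 32851 windows in the table. A GC box on either strand was found in 4 of 7, against 35.7%. GTTAAT, a half-site of the hepatocyte nuclear factor HNF1, was found in 0 of 7 windows on either strand, against 7.1% of all windows. These matches describe the letters of the windows only.

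The values below are log ratios of a nephritic mouse over the control pool, in the deposited log unit, after each array was centred on its median. The base of the logarithm was not stated. A value above 0 is read as more RNA in the nephritic mouse, a likely reading, based on the dyes named in the labels, that no source states for these values. The phagocyte lysozyme Lyz2 at 1.69 and the proximal tubule phosphate transporter Slc34a1 at -1.22 then have the signs that textbooks give for inflamed kidney. An exact 0, which filled 26.7 to 32.4% of the cells of an array, was treated as missing. Arrays correlated with each other at Pearson's r of 0.802 to 0.906 over 9693 rows measured on all of them, a description to which the shared pool contributes. Precision is limited by the number of arrays. Whole kidney was measured, so fewer cells of a type and less RNA per cell cannot be told apart. Levels in kidney cannot be read from ratios; the rows of the tubule genes Umod, Kap and Cyp4b1 were listed at 0 on all arrays.

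The membrane peptidases Enpep, Mme and Dpp4 fell in nephritic kidney, and Ace was below 0 in every mouse without passing the test. Of the 4 members tested, 3 were lower and 0 higher at an adjusted p of 0.05 in limma, which tested each mean of 3 ratios against 0 and adjusted over all 8449 features with a ratio on every array. At an unadjusted p under 0.05 the counts were also 3 and 0, and 0 members were higher under each alternative run. Of those features 22.3% were called lower, 20.8% higher and 43.1% either way, so a call by itself is common in these data. The median of the 4 members was -0.48, and that of all features tested was -0.01. In the ranking of all features from the lowest ratio, Dpp4 stood at percentile 4.46, Enpep at 6.12, Mme at 12.2 and Ace at 26.8.

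Enpep, which turns angiotensin II into angiotensin III, stood at -0.51 in mouse 1, -0.56 in mouse 2 and -0.66 in mouse 3. The 3 mice lay close together and all well below 0, with a mean of -0.58 ± 0.0754 (SD, n = 3), a 95% interval of -0.74 to -0.41 and a limma adjusted p of 0.000867. Such a ratio would put the nephritic level at 67.1% of the control pool if the logarithm has base 2, at 56.2% if it is natural and at 26.6% if it has base 10. Enpep had 2 rows, both below 0 in every mouse. The first was at -0.38, -0.62 and -0.55 in mice 1, 2 and 3, and the second at -0.63, -0.51 and -0.76. Their ranges overlap, and each row passed alone (limma adjusted p = 0.0016 and 0.000641). They ordered the mice differently, with mouse 2 lowest in the first row and highest in the second, and the SD of each row, 0.122 and 0.127, was larger than that of their mean. Enpep passed under every alternative except the unmoderated one-sample test, where its adjusted p was 0.073.

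Mme, which encodes neprilysin, fell by less but with the narrowest spread of the members. Its ratio was -0.38 in mouse 1, -0.41 in mouse 2 and -0.37 in mouse 3, which gave -0.39 ± 0.0202 (SD, n = 3), a 95% interval of -0.54 to -0.23 and a limma adjusted p of 0.00366. Only 2.52% of all features had an SD as low. The first row of Mme read -0.38, -0.40 and -0.28 in mice 1, 2 and 3, and the second read -0.38, -0.41 and -0.46. The rows were nearly equal in mice 1 and 2 and stood apart in mouse 3, where one was the highest of the 6 values and the other the lowest. These departures partly cancel in the mean of the rows. The SD of each row alone, 0.0689 and 0.0414, was larger than that of their mean.

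Dpp4, the dipeptidyl peptidase, had the lowest mean of the members and the widest spread. It stood at -0.30 in mouse 1, -1.21 in mouse 2 and -0.49 in mouse 3, a mean of -0.67 ± 0.48 (SD, n = 3) with a 95% interval of -1.06 to -0.28 and a limma adjusted p of 0.0161. All mice were below 0, and mouse 2 was far below the other two. Both rows showed mouse 2 as the lowest: the first read -0.33, -0.83 and -0.49, and the second -0.27, -1.60 and -0.49 in mice 1, 2 and 3. The rows thus nearly coincided in mouse 3 and differed in mouse 2. Without mouse 2 the mean of Dpp4 was -0.40 and still passed (limma adjusted p = 0.0175). It did not pass with exact 0 values kept as ratios (-0.65, limma adjusted p = 0.271), where 7.45% of 13241 features passed, although no cell of its own rows held 0, nor in the unmoderated one-sample test (adjusted p = 0.243).

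Ace, the converting enzyme, was the member nearest to 0. Its ratio was -0.06 in mouse 1, -0.35 in mouse 2 and -0.15 in mouse 3, and the mean of -0.19 ± 0.148 (SD, n = 3) did not pass (95% interval -0.37 to 0.00381, limma adjusted p = 0.102). The 3 Ace rows measured on all arrays gave unlike values. The first was at 0.09, -0.18 and 0.10 in mice 1, 2 and 3, with a mean of 0.000507. The third was at 0.05, -0.52 and -0.34, and its mean of -0.27 did not pass alone (limma adjusted p = 0.0844). The fourth was at -0.30, -0.34 and -0.22, the tightest of the rows, and passed alone at -0.29 (limma adjusted p = 0.0154). The second row had a ratio in mouse 3 only, at -0.13. Mouse 2 was the lowest mouse in each of the 3 rows, and which form of the transcript each row detects was not analysed here. Without mouse 1, where 47% of all features passed, the mean was -0.25 and passed (limma adjusted p = 0.0318), and with estimated array weights it was -0.18 and passed (limma adjusted p = 0.0237), a setting in which 61.5% of all features passed.

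**Figure D1:**
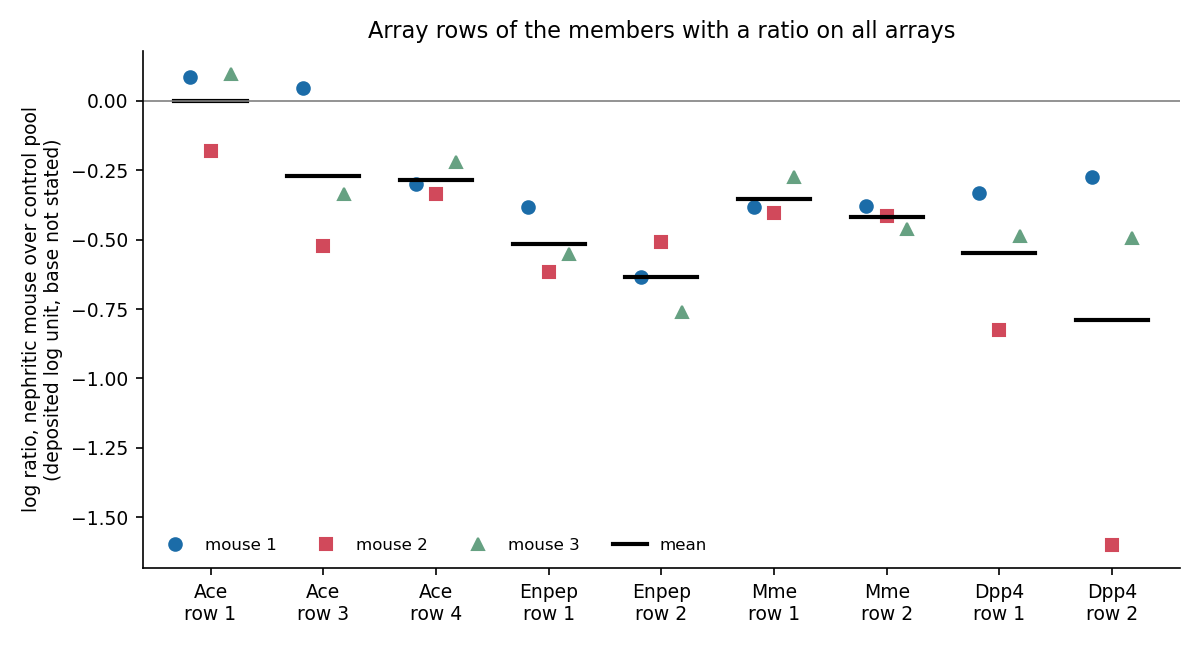
Log ratio of nephritic mouse over control pool (vertical axis, deposited log unit, base not stated) for the 9 member rows with a ratio on all arrays; each point is 1 mouse and each bar the mean of 3 mice. All rows of Enpep, Mme and Dpp4 lie below 0 in every mouse, the second Dpp4 row reaches -1.60 in mouse 2, and rows 1 and 3 of Ace straddle 0.

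Row by row, 7 of the 9 member rows with a ratio on all arrays were lower, against 21.5% of all 9693 rows tested singly in limma, and 0 were higher, against 20.9% (42.4% passed either way). Of the 27 single ratios behind them, 24 were below 0, and the others came from rows 1 and 3 of Ace. Rows of 1 gene share their transcript and are not independent replicates, and the members were chosen with earlier results of these data known.

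The members were set against each other within mice in 6 pairs. Enpep was lower than Mme in all mice, by -0.19 ± 0.0866 on average (SD, n = 3). Ace was higher in all mice than Enpep, by 0.39 ± 0.153, than Mme, by 0.20 ± 0.132, and than Dpp4, by 0.48 ± 0.334. The exact sign-flip permutation test, two-sided, gave p = 0.25 for these differences, the smallest that 3 mice allow, and 0.375 after Benjamini-Hochberg adjustment over the 6 pairs. Enpep and Dpp4 were not ordered: Dpp4 was the lower gene in mouse 2 only, and the mean difference of Enpep minus Dpp4 was 0.09 ± 0.483 (exact p = 1). Mme minus Dpp4 averaged 0.28 ± 0.463 and was below 0 in mouse 1 only (sign-flip exact p = 0.5).

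The precursor and the AT2 receptor had no ratio on all arrays. Agt, which encodes angiotensinogen, had 1 row, with a ratio of 0.06 in mouse 2 and an exact 0 in mice 1 and 3. Agtr2, the AT2 receptor gene, had 2 rows: the first read -0.09 in mouse 2 and 0.31 in mouse 3, and the second had a ratio in mouse 3 only, at 0.01. The Agtr2 values have both signs, and mouse 1 gave none. When ratios on 2 arrays sufficed, the first Agtr2 row averaged 0.11 and did not pass (limma adjusted p = 0.51).

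Other enzymes and receptors of angiotensin peptides were examined next, with peptidases of the brush border beside them. Of 18 genes listed, 13 had a row and 10 were tested. In limma 4 were lower, 0 were higher and 6 did not pass (6 and 0 at an unadjusted p under 0.05), with a median of -0.21. Counts in this list and in those that follow stand beside 22.3% of all features called lower and 20.8% called higher. Without mouse 2, and likewise without mouse 3, 2 were lower. Over all features 47% passed without mouse 1, 31% without mouse 2 and 25.8% without mouse 3, against 43.1% with all mice, so counts in those settings, here and in the lists that follow, move with the share over all features. Cltrn, collectrin, a membrane protein that amino acid transporters of the tubule need to reach the brush border, fell in all mice, at -0.63, -0.82 and -0.75 (mean -0.73 ± 0.0986, limma adjusted p = 0.000387). Ctsg, a protease of neutrophils and mast cells that can form angiotensin II, was at -0.61 ± 0.14, and Anpep, aminopeptidase N, which trims angiotensin III, at -0.27 ± 0.072. The other gene that fell was Cma1, a mast cell chymase chosen after its value was known, at -0.34 ± 0.254. The calls of Anpep and Cma1 were lost without mouse 2 and without mouse 3, where their means lay between -0.31 and -0.24 and between -0.48 and -0.23 over the 3 settings that leave out a mouse. With exact 0 values kept, here and in what follows, rows at 0 on some or all arrays are averaged into the mean of their gene. Cltrn and Ctsg each had 2 rows, 1 of them at 0 on all arrays, which by itself pulls the mean toward 0. They moved to -0.36 and -0.30, and of the 4 genes Cltrn alone passed.

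Peptidases and related proteins of the brush border fell without exception among those measured. All 7 of the genes tested, of 11 listed, were lower, against 22.3% of all features, and their median was -0.54. This list, like the others here, was chosen with earlier results of these data known, so the count is a description only. Mep1b, the beta subunit of the metalloprotease meprin, was lowest, at -0.96, -0.88 and -1.07 in mice 1, 2 and 3, a mean of -0.97 ± 0.0941 (SD, n = 3; limma adjusted p = 0.000138). Naalad2, a relative of glutamate carboxypeptidase, was at -0.57 ± 0.231, and its lowest value, -0.80, came from mouse 2. Together with Cltrn these were the genes of the list with the smallest p, and the others lay between -0.54 and -0.27. Anpep and Cltrn are counted in this list and in the one before. With exact 0 values kept, 2 of the 7 passed, and without mouse 2 or mouse 3 Anpep was lost, as was Folh1 without mouse 3.

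Markers of the proximal tubule, the cells that carry this brush border, were mostly lower, as the members were. Of 20 markers, 15 had a row and 9 were tested; 8 were lower and 1 higher, with a median of -0.53. The sum over the 9 tested markers was -4.86, -4.60 and -4.86 in mice 1, 2 and 3, and Kap and Cyp4b1 were listed at 0 on all arrays. The sum over the 4 tested members was -1.25, -2.53 and -1.67. Mouse 2 was thus lowest for the members and highest for the markers. Gatm, of creatine synthesis, was at -1.17, the endocytic receptor gene Cubn at -0.88 and Slc34a1 at -1.22, while the sulfate transporter gene Slc13a1 rose by 0.79. With exact 0 values kept, Cubn, Slc34a1 and Slc13a1 moved to -0.59, -0.71 and 0.42, and Cubn and Slc13a1 lost their calls. In that setting 3 of the markers were lower and 0 higher, where 7.45% of all features passed. The part of the proximal tubule in the fall of Enpep, Mme and Dpp4 was not tested.

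**Figure D2:**
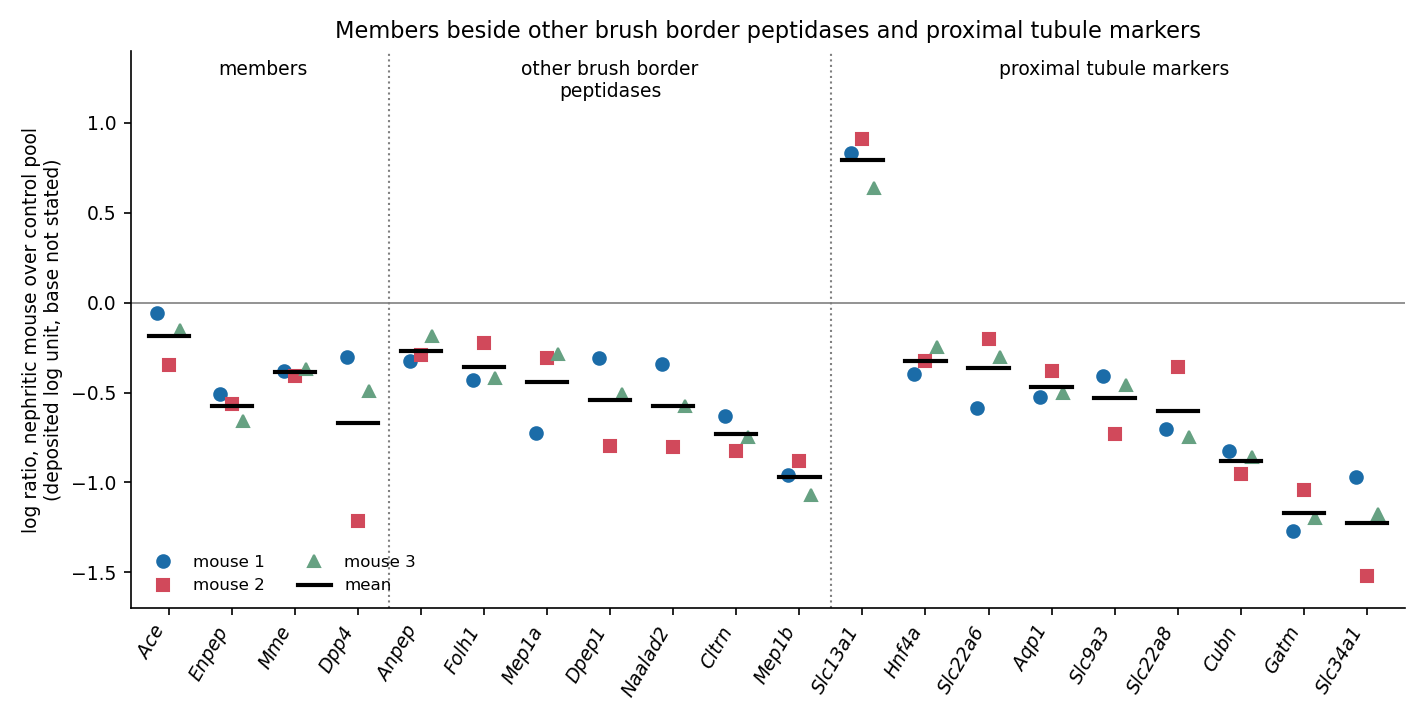
Log ratio of nephritic mouse over control pool (vertical axis, deposited log unit) for the 4 tested members, 7 other brush border genes and 9 proximal tubule markers; points are mice and bars are means of 3 mice. Apart from Slc13a1 at 0.79, every mean lies below 0, and the members Enpep, Mme and Dpp4 lie within the range of the other brush border genes, from -0.97 to -0.27.

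Cells outside the tubule that carry the members gave mixed values. Of 11 podocyte markers 4 were tested; the slit diaphragm gene Nphs1 fell, at -0.42, a call lost without mouse 2 (-0.26), and its binding partner Cd2ap rose, at 0.43, while Podxl, Synpo and Plce1 were listed at 0 on all arrays. Their sum was -0.03, -0.12 and 0.49 in mice 1, 2 and 3. Of 10 tested endothelial markers, 1 rose, the TGF-beta coreceptor gene Eng at 0.43 (0.29 without mouse 1), and the list median was 0.08. Beside the fall of Dpp4, T cell markers rose in 4 of 8 tested and fell in 0 in limma (5 and 0 at an unadjusted p under 0.05), among them Il7r at 0.88, Cd8a at 0.99 and Cd4 at 0.24, with sums from 2.23 to 2.84 over the mice; Cd3e was listed at 0 on all arrays. Cd4 lost its call without mouse 2 and without mouse 3, where 3 and 2 T cell markers rose. With exact 0 values kept Cd4 and Cd8a moved to 0.08 and 0.53. Of the 3 rows of Cd4, 2 were at 0 on all arrays and are averaged in there. Beside Ctsg, neutrophil markers rose in 2 of 10 and fell in 3, against 20.8% and 22.3% of all features. S100a9 was at 1.48, S100a8 at 0.55 and Ly6g at -0.51 (S100a9 at 0.97 with exact 0 values kept). The sums of the neutrophil markers ran from 0.75 to 1.99. Of these markers 1 fell without mouse 2, and 1 without mouse 3. Macrophage markers rose in 8 of 8 tested, with sums of 6.83, 6.90 and 8.003 in mice 1, 2 and 3; Cd14 was listed at 0 on all arrays. When exact 0 was kept, 2 of them, Lyz2 and Mrc1 (1.51 as reported), were higher, and without mouse 3 the count was 6, with the calls of Adgre1 (0.47, then 0.28) and Csf1r lost; both were chosen after their values were known. The parts of these cells in the members' ratios were not tested.

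Lists drawn around Mme and Dpp4 gave different directions. In the neprilysin family, of 4 genes tested, 2 fell and 0 rose in limma (3 and 0 at an unadjusted p under 0.05), and 1 fell without mouse 3. Phex, a peptidase tied to phosphate handling, stood at -0.58, -1.24 and -1.06 in mice 1, 2 and 3 (mean -0.96 ± 0.34, limma adjusted p = 0.00118), lower than Mme in every mouse, and Ecel1 was at -0.37 ± 0.0996. Keeping exact 0 moved Phex to -0.47 and ended its call, and the call of Ecel1 was lost without mouse 3 and with exact 0 kept (-0.18). Both genes have 2 rows, 1 of them at 0 on all arrays, which is averaged in when exact 0 is kept. In the list drawn around Dpp4, which holds relatives of it and other dipeptidyl peptidases, 2 of 4 tested genes rose and 0 fell in limma (also 2 and 0 at an unadjusted p under 0.05), and 1 rose without mouse 2. Fap, a peptidase of activated fibroblasts and a close relative of Dpp4, was at 0.68, 0.56 and 0.56 (mean 0.60 ± 0.0714, limma adjusted p = 0.000729), above 0 in every mouse in which Dpp4 was below 0. Dpp3, the other gene that rose, at 0.36 ± 0.101, is a cytosolic metallopeptidase that degrades angiotensin II and shares the name dipeptidyl peptidase but not the family of Dpp4. Fap had 2 rows, and the values above rest on the 1 row measured on all arrays. The other row joined the mean without mouse 2 (0.28) and when exact 0 was kept (0.30), and in both settings the call was lost. It also joined when ratios on 2 arrays sufficed, where the mean stood at 0.38.

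Bradykinin, which Ace and Mme degrade, has its own enzymes and receptors. In the kallikrein-kinin list of 12 genes, 8 had a row, 4 were tested and 0 passed in either direction in limma, with a median of 0.12. At an unadjusted p under 0.05 the count was 1, the receptor gene Bdkrb2, chosen after its value was known, at 0.18 ± 0.0614 (limma adjusted p = 0.0689). Without mouse 1, 1 gene of the list was higher, and without mouse 2, 1 was lower.

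Of the genes of AT1 receptor signalling, 14 were tested. In limma 3 fell, near the background share of 22.3%, 0 rose, against 20.8% of all features, and 11 did not pass. At an unadjusted p under 0.05 the counts were 3 and 1. The median was -0.06, and without mouse 1, 1 rose. Nox4, the NADPH oxidase of the tubule, read -0.95, -0.46 and -0.74 in mice 1, 2 and 3 (mean -0.71 ± 0.247, limma adjusted p = 0.00173). Plcb1, a phospholipase coupled to the receptor's G protein, was at -0.37 ± 0.268, with its lowest value, -0.67, in mouse 1; without mouse 1 it was at -0.21. Cyba, the oxidase partner subunit, was at -0.25 ± 0.066 and lost its call without mouse 2 and without mouse 3. With exact 0 values kept, 1 of these 14 genes was lower, the G protein gene Gna13, chosen after its value was known, at -0.07.

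Genes of the juxtaglomerular apparatus and of renin release moved both ways. Of 15 tested, 4 rose and 4 fell, near the background shares of 20.8% and 22.3%. Nos1, the nitric oxide synthase of the macula densa, was at -0.69, -0.70 and -0.74 in mice 1, 2 and 3 (mean -0.71 ± 0.0244, limma adjusted p = 0.000306). Of its 3 rows, 1 had a ratio on all arrays and 1 was at 0 on all arrays. The mean over all its rows was -0.24 when exact 0 was kept. It was -0.39 without mouse 1 and -0.49 when ratios on 2 arrays sufficed, settings in which another row joined the mean. Slc12a1, the salt cotransporter through which the macula densa senses chloride, was at -0.87 ± 0.24, and the calcium-sensing receptor gene Casr at -0.26 ± 0.128, a call lost without any 1 of the mice. Npr3, the clearance receptor of natriuretic peptides, fell as well, at -0.29 ± 0.173, a call lost without mouse 2 (-0.19) and without mouse 3. The rises were Slc12a2, a salt cotransporter of other cells, at 0.57 ± 0.161, and, chosen after their values were known, the prostaglandin receptor gene Ptger4 at 0.44 ± 0.243, the connexin gene Gja4 at 0.39 ± 0.0153 and the cGMP-dependent kinase gene Prkg2 at 0.27 ± 0.186. Gja4 was the mean of 2 rows, and the row farther from 0 stood at 0.70 alone. The rows thus differed, which the SD of their mean does not show. Ptger4 lost its call without mouse 3, and Prkg2 without mouse 2 (0.17) and without mouse 3. Without mouse 3, 2 genes of the list rose and 2 fell, and without mouse 2, 2 fell. With exact 0 values kept, 0 of the 15 were higher and 1, Nos1, was lower, and Ptger4 moved to 0.29.

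Markers of smooth muscle, mesangium and pericytes, the lineage from which renin cells arise, rose in part. Of 8 tested, 4 rose and 0 fell in limma (5 and 0 at an unadjusted p under 0.05), with sums from 2.88 to 3.38 over the mice. The contractile protein genes Tagln and Acta2 were at 1.49 and 0.55, and Gata3 was at 0.49, while Rgs5 and Myh11, chosen after their values were known, were at -0.14 and -0.09 and did not pass. Their part in the ratios of the juxtaglomerular list was not tested.

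Downstream of angiotensin II, genes of aldosterone action and sodium transport in the distal nephron were examined. Of 11 tested, 3 fell and 2 rose, against 22.3% and 20.8% of all features, with a median of 0.14. Without mouse 1, 5 rose (47% of all features passed there), and without mouse 3, 1 rose (25.8%). Tsc22d3, a steroid-induced leucine zipper gene, was at -0.81, -0.57 and -0.86 in mice 1, 2 and 3 (mean -0.75 ± 0.159, limma adjusted p = 0.000601). Stk39, a kinase that activates sodium chloride cotransport, was at -0.56 ± 0.149. This was the mean of 2 rows that disagreed: the row farther from 0 stood at -1.33 alone, so the other averaged above 0. The aldosterone-induced kinase gene Sgk1 was at -0.39 ± 0.177, a call lost without mouse 3. Scnn1g, the gamma subunit of the epithelial sodium channel, rose in all mice, at 0.61, 0.48 and 0.86 (mean 0.65 ± 0.192, limma adjusted p = 0.00145). When exact 0 was kept it was at 0.33, with its call lost. Of its 2 rows, 1 was at 0 on all arrays and is averaged in there. Nedd4l, the ubiquitin ligase that removes the channel, was at 0.26 ± 0.0737, a call lost without mouse 2 and without mouse 3. Beside these, distal nephron markers fell in 4 of 9 tested and rose in 1, with Slc4a1 at -1.23 (-0.77 when exact 0 was kept), Pvalb at -1.58 and the water channel gene Aqp2 at 0.29; their sums ran from -5.62 to -2.84, 0 rose without mouse 3, and Umod was listed at 0 on all arrays. Slc12a1 is counted there too, and the part of these cells was not tested.

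Peptides that Mme clears were examined last. In the list of natriuretic and endothelin peptides and their receptors, 4 of 11 genes were tested, and 2 fell and 1 rose; without mouse 2, and without mouse 3, 1 fell. Edn1, endothelin, which constricts vessels, was at 0.32, 0.84 and 0.83 in mice 1, 2 and 3 (mean 0.66 ± 0.297, limma adjusted p = 0.0038), while its receptor gene Ednrb was at -0.55 ± 0.185 and Npr3, given above, was the other gene lower. The natriuretic peptide genes Nppa and Nppc and the receptor gene Npr1 were listed at 0 on all arrays. With exact 0 values kept, 0 genes of this list and 0 of the lists around Mme and Dpp4 passed in limma, where 7.45% of all features passed (3782 features at an unadjusted p under 0.05), and Ednrb moved to -0.28. Of the list genes outside the members named here, those that passed in that setting were Cltrn, Mep1b, Nos1, Slc34a1, Gatm, Acta2, Cd4, Cd8a, Il7r, S100a9, Lyz2, Mrc1 and Gna13, the last of which did not pass in the setting as reported.

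**Figure D3:**
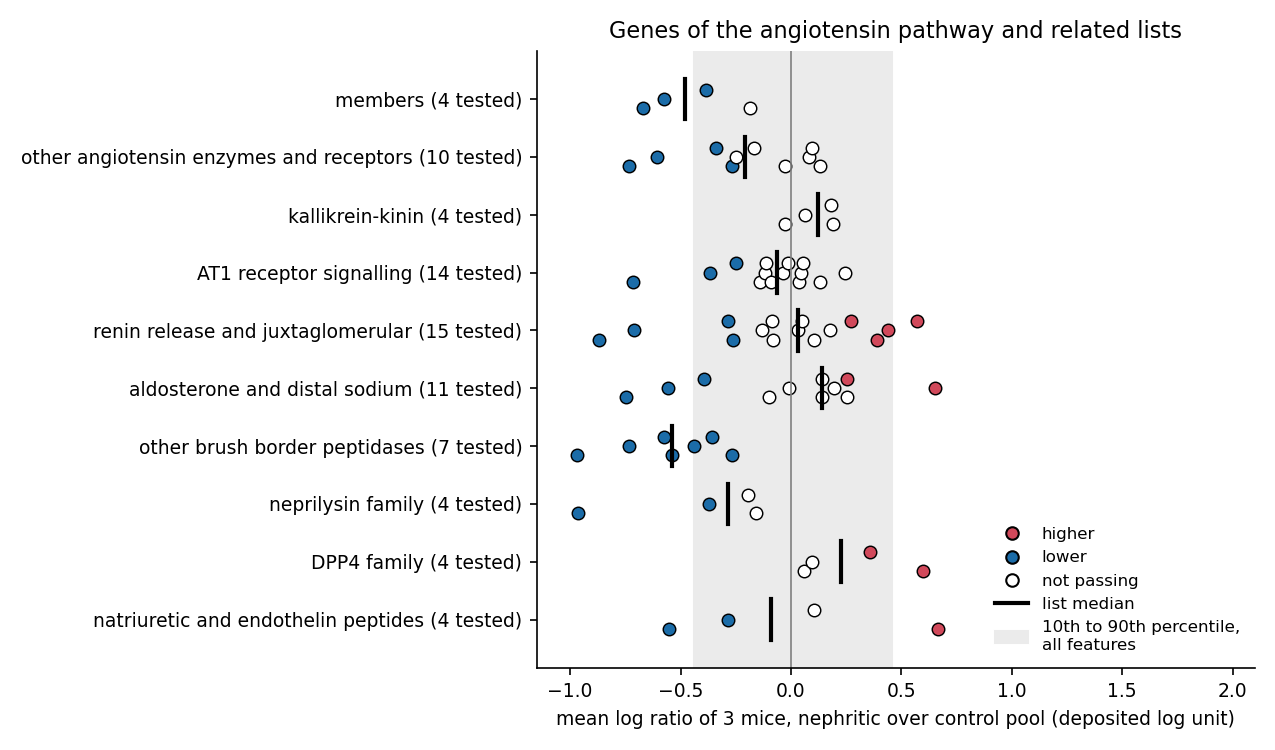
Mean log ratio of 3 mice (horizontal axis, deposited log unit) for every tested gene of the members and of 9 related lists; colour gives the limma call, bars are list medians, vertical offsets only separate the points, and the grey band spans the 10th to the 90th percentile of all features. The members (median -0.48) and the other brush border genes (median -0.54) lie to the left, and the list labelled DPP4 family, which also holds the unrelated Dpp3 (median 0.23), to the right.

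The genes whose ratios over the 3 mice lay nearest to each member, by Euclidean distance among all named genes, are given as a description over 3 samples. Tdrd12 and Mlycd lay nearest to Enpep, at distances of 0.0226 and 0.0314, and Ngly1 and Araf to Mme, at 0.0296 and 0.0328. Abcc6 and Wif1 lay nearest to Dpp4, at 0.0757 and 0.132, and both shared the low value of mouse 2, at -1.19 and -1.10. Slc30a6 and Serpinb9g lay nearest to Ace, at 0.0274 and 0.0317.

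The 4 tested members kept their sign under all settings tried. The mean of Mme over the settings that leave out a mouse stayed between -0.39 and -0.37, that of Enpep between -0.61 and -0.54, that of Ace between -0.25 and -0.10 (without mouse 2) and that of Dpp4 between -0.85 and -0.40.

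**Figure D4:**
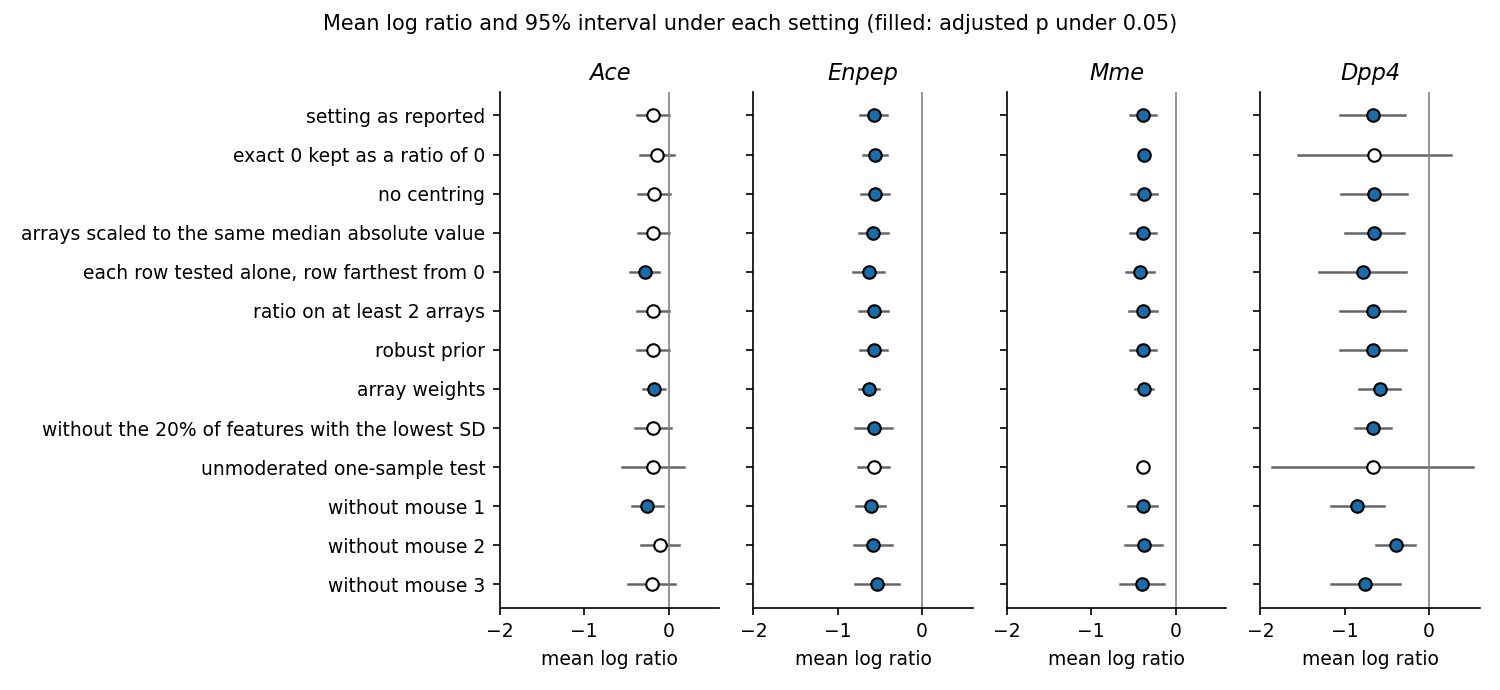
Mean log ratio (horizontal axis, deposited log unit) with its 95% interval (line) for each tested member under each setting; filled points passed at an adjusted p of 0.05. Mme has no value without the 20% of features with the lowest SD, to which it belongs, and the interval of Dpp4 is the widest in the setting as reported, from -1.06 to -0.28.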

How the data were processed

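Kidney RNA of 3 nephritic mice was set against 1 control pool on 3 arrays of 2 colours. The deposited values are log ratios, handled as log2 values although neither base, direction, normalization, scanner nor build is given in the sources used here. The column medians over all cells were 0, and over the cells other than 0 they were 0.0151, 0.0160 and 0.0171; centring, scale and direction of the deposited columns stay unstated.

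Of 16281 rows, 13738 had 1 gene symbol (13694 matched by gene ID to RefSeq, GRCm38.p6, used for names), 52 several and 2491 none. Exact 0 was taken as missing, arrays were centred on their median, and rows of a gene were averaged. With limma 3.58.1 in R 4.3.3 (lmFit and eBayes, whose prior SD was 0.134 on 4.85 degrees of freedom; 2 residual), the features measured on every array were tested against 0, two-sided, with Benjamini-Hochberg adjustment at 0.05. Intervals are limma's, at 95%. The test leaves out the spread between control mice. The fit was tested on simulated data with independent errors, few changed features and no shared control pool. That simulation therefore does not check the calls made here.

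The members and lists were chosen with earlier results of these data known. The rule for named genes took all members with a ratio, up to 3 genes of each list with the smallest p among those passing with 1 sign in all mice, genes passing against their list's median, and the 2 nearest genes of each member; others are marked. Alternatives were exact 0 kept, no centring, scaling, single rows with the row of each gene farthest from 0 kept, and ratios on 2 arrays. Further ones were a robust prior, array weights, dropping the 20% of features of lowest SD, an unmoderated test and each mouse left out.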

Additional observations from a re-analysis of the deposited data

How the results depend on the processing

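Enpep, Mme, Dpp4 and Ace kept their direction under every alternative that gave a value, and Enpep and Mme lost the threshold only in the unmoderated one-sample test (-0.58 and -0.39), as did Dpp4 (-0.67); that test passed 0 of 8449 features, with 3060 at an unadjusted p under 0.05, so the count of lower members and every list count was 0. Dpp4 was also lost with exact 0 kept (-0.65). Ace passed with the row farthest from 0 tested alone (-0.29), while its other rows with a ratio on all arrays did not pass. It also passed with array weights (-0.18) and, in the range of -0.25 to -0.10 over the mice left out, without mouse 1. Leaving out low-SD features drops Mme and gave a smallest adjusted p of 3.67e-103, so that setting says little about p.

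With exact 0 kept, 1 gene was lower among other angiotensin genes, 1 in AT1 signalling, 1 in renin release and 2 among brush border genes. The count was 0 for renin release higher, for aldosterone in both directions, for the neprilysin family lower, the list around Dpp4 higher and natriuretic peptides in both directions. Among T cell markers Cd5 turned to -0.036 (from 0.26). Array weights gave 1 other angiotensin gene, 2 kinin genes, 2 AT1 genes and 6 aldosterone genes higher, and 6 AT1 and 4 neprilysin family genes lower. Ratios on 2 arrays gave 1 kinin gene lower and 1 AT1 gene higher. Taking for each gene the single row farthest from 0 gave 1 kinin gene higher. Over the 3 settings that leave out a mouse, other angiotensin genes lower ran from 2 to 5, renin release genes from 2 to 5 higher and 2 to 4 lower, aldosterone genes higher from 1 to 5, and neprilysin family genes lower from 1 to 3. Counts higher in the list around Dpp4 and lower among natriuretic genes ran from 1 to 2, and kinin genes in each direction and AT1 genes higher from 0 to 1. With exact 0 kept, with ratios on 2 arrays and with a mouse left out, rows without a ratio on every array can enter a gene's mean. Some moves, such as that of Fap without mouse 2, thus come with a change in the rows averaged. The share of this in the moves of the counts was not tested.

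Of 133 list genes outside the members, 68 passed in the setting as reported. Of these 68, 54 lost their call with exact 0 kept, and Cd5 besides, where 7.45% of all features passed. Of the same 68, a call was lost by 2 without mouse 1, 12 without mouse 2 and 19 without mouse 3. In those settings 47%, 31% and 25.8% of all features passed, against 43.1% with all mice. Precision is limited by the number of arrays; brightness over background was not analysed here. No paired analysis was possible because there is 1 group of arrays, each against the same pool.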
